A study of Homo sapiens with 6 samples.

Results

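The aminoacyl-tRNA synthetases of MV4;11 cells were followed through 38 genes chosen by name, all of which were present among the 21857 genes of the deposited tables and all of which passed the filter on low counts. They comprise 17 cytosolic enzymes, 2 enzymes that work in both the cytosol and mitochondria (GARS1 and KARS1), 16 mitochondrial enzymes and 3 scaffold proteins of the multisynthetase complex (AIMP1, AIMP2 and EEF1E1). MV4;11 is a human acute myeloid leukemia line which, per the labels, carries FLT3-ITD and MLL-AF4. RNA was sequenced in 3 libraries of cells exposed to 10 µg/ml FKA for 48 h and 3 control libraries of cells kept without FKA. FKA is flavokawain A, a chalcone of the kava plant. What the controls received in its place is not given in the labels, and nothing says that the 3 libraries of a group came from separately grown cultures, so p-values measure the spread between these libraries. All groups are of a single cell line.

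Each synthetase joins an amino acid to its tRNA, and every protein chain depends on the supply of these charged tRNAs. Human cells keep a cytosolic set, named with the suffix 1 for most amino acids, and a nuclear-encoded mitochondrial set, named with the suffix 2, that serves the few proteins made inside mitochondria. Several cytosolic enzymes sit together in the multisynthetase complex, held by AIMP1, AIMP2 and EEF1E1. When uncharged tRNA accumulates, the kinase GCN2 raises translation of the transcription factor ATF4, which is known to raise the transcripts of many cytosolic synthetases together with genes of amino acid synthesis and uptake.

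Total counts per library were 29971171 to 33183376 with FKA and 33759185 to 36362421 in controls. Across all genes 8090 of 13531 (59.8%) passed edgeR's adjusted p threshold of 0.05, 30.5% lower and 29.3% higher with FKA, so a call by itself was common. With libraries scaled to their totals only, the all-gene median moved up by 0.16 on the log2 scale and 60.3% of calls were higher, against 48.9% with TMM scaling. All changes below are relative to TMM scaling. The 10 myeloid identity genes all had counts, with summed levels of 2288 to 2368 CPM with FKA and 2028 to 2146 CPM in controls. CEBPA, the most abundant over all libraries, had 661.6 ± 15.1 CPM with FKA and 788 ± 137 CPM in controls (SD, n = 3 each). Within that sum MPO fell (1.06 ± 0.928 CPM with FKA and 44.5 ± 21.1 CPM in controls), while CSF3R (log2 fold change 1.53), ITGAM (1.51) and CD68 (1.09) rose and the other 6 were not called. Mesenchymal markers summed to 21.7, 75.7 and 74.0 CPM in FKA replicates 1 to 3 and 40.1, 46.9 and 22.2 CPM in control replicates 1 to 3. All 10 of these markers had counts, and ACTA2 was the most abundant. COL1A1 stood at 0.342, 13.0 and 12.9 CPM in the FKA libraries, against 2.41, 2.29 and 0.119 CPM in the controls, and FN1 at 0.590, 25.0 and 22.8 CPM against 5.47, 4.69 and 0.535 CPM. FKA replicates 2 and 3 therefore stood apart in collagen and fibronectin reads. Epithelial markers (KRT18 most abundant, 6 of 8 in the table) summed to 13.1 to 19.0 CPM with FKA and 19.2 to 21.9 CPM in controls, and erythroid markers (EPOR most abundant, 2 of 8 in the table, KLF1 at 0 with FKA) to 10.6 to 12.4 and 8.27 to 12.1 CPM. T and NK markers (NKG7 most abundant, 5 of 8 in the table, CD3D at 0 with FKA) summed to 9.65 to 10.3 CPM with FKA and 21.3 to 24.2 CPM in controls, and B cell markers (BANK1 most abundant, 6 of 8 in the table, BLK at 0 with FKA) to 33.0 to 35.9 and 66.6 to 83.7 CPM.

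Transcripts for tRNA charging were lower with FKA in most of the family. Of the 38 genes 27 fell (71.1%, against 30.5% of all tested genes), 2 rose (29.3% of all genes rose) and 9 did not pass the test. The fall was at least 2-fold in 14 of the 38 genes, against 13.7% of all tested genes. The cytosolic and dual enzymes had a median log2 fold change of -1.04, the scaffold proteins of -1.64 and the mitochondrial enzymes of -0.49, where the median of all tested genes was 0.01. FKA and control libraries did not overlap in 30 genes, 28 of them lower and 2 higher with FKA; of the 13531 tested genes 67.3% had such separate groups, and 33.6% had them with FKA lower. In bulk RNA, fewer cells with a transcript and less of it per cell cannot be told apart.

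**Figure D1:**
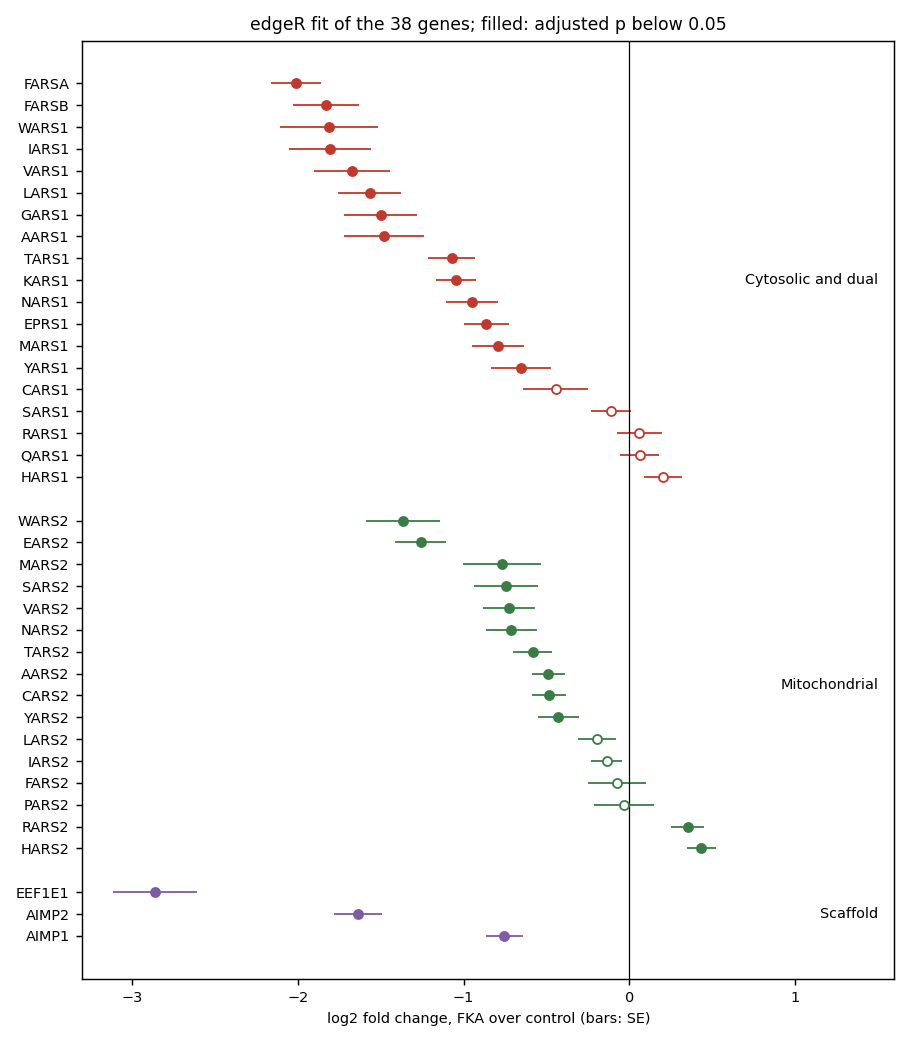
Fitted log2 fold change of each of the 38 genes, FKA over control, with its standard error as the bar, in the order of size within cytosolic and dual enzymes, mitochondrial enzymes and scaffold proteins. Filled points passed edgeR's adjusted p of 0.05: 14 cytosolic or dual enzymes, 10 mitochondrial enzymes and 3 scaffold proteins lay below 0, and only HARS2 and RARS2 lay above 0 with a call.

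Among the 19 cytosolic and dual enzymes, 14 fell and 5 were not called; none rose. Levels are TMM-scaled CPM, counts divided by an effective library size. FARSA, the catalytic subunit of cytosolic phenylalanyl-tRNA synthetase, had 63.7, 51.2 and 69.9 CPM in FKA replicates 1 to 3, against 287, 210 and 249 CPM in control replicates 1 to 3. The highest FKA library was far below the lowest control, and the log2 fold change of -2.01 (SE 0.150, edgeR adjusted p = 1.35e-05) was the largest fall among the cytosolic enzymes. Its partner subunit FARSB, with which it forms a tetramer, had 33.4, 22.0 and 36.9 CPM with FKA, against 133, 95.3 and 99.8 CPM in controls. Both subunits thus fell by a like amount, FARSB with a log2 fold change of -1.83 (SE 0.200, edgeR adjusted p = 9.13e-05), and the difference between them was not tested.

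WARS1, the tryptophanyl enzyme that is also known as an interferon-inducible gene, had 215, 94.6 and 96.8 CPM with FKA, against 415, 529 and 483 CPM in controls. FKA replicate 1 stood more than 2-fold above the other FKA libraries but still below every control. The log2 fold change was -1.81 (SE 0.296, edgeR adjusted p = 0.000777), and 9.14% of the 50-base stretches of its longest coding transcript in GENCODE release 29 also occur in transcripts of other genes, mostly of WDR25.

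The isoleucyl enzyme IARS1 had 266, 118 and 192 CPM with FKA, against 699, 644 and 673 CPM in controls, a log2 fold change of -1.81 (SE 0.247, edgeR adjusted p = 0.000297). The leucyl enzyme LARS1 had 226, 134 and 201 CPM with FKA, against 626, 491 and 544 CPM in controls, a log2 fold change of -1.57 (SE 0.188, edgeR adjusted p = 0.000147). IARS1 and LARS1 both belong to the multisynthetase complex, and in both the lowest FKA library was replicate 2. The valyl enzyme VARS1, which binds elongation factor 1 and stands outside that complex, had 83.5, 47.7 and 85.2 CPM with FKA, against 286, 193 and 212 CPM in controls. Its log2 fold change was -1.67 (SE 0.229, edgeR adjusted p = 0.000302), with no overlap between the groups.

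The alanyl enzyme AARS1 had 339, 206 and 179 CPM with FKA, against 524, 754 and 745 CPM in controls. Here FKA replicate 1 and control replicate 1 were the nearest of their groups, and the log2 fold change was -1.48 (SE 0.242, edgeR adjusted p = 0.000772). GARS1, the glycyl enzyme made for both compartments from a single gene, had 189, 101 and 105 CPM with FKA, against 385, 366 and 366 CPM in controls. Its log2 fold change was -1.50 (SE 0.221, edgeR adjusted p = 0.000448), and FKA replicate 1 was again the nearest to the controls. KARS1, the lysyl enzyme and the other dual gene, had 108, 89.4 and 115 CPM with FKA, against 243, 196 and 207 CPM in controls (log2 fold change -1.04, edgeR adjusted p = 0.000135), without such a gap between FKA libraries.

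TARS1, the threonyl enzyme and the most abundant family member per length in controls, had 422, 298 and 314 CPM with FKA, against 668, 732 and 771 CPM in controls, a log2 fold change of -1.07 (SE 0.143, edgeR adjusted p = 0.000258). Smaller falls were fitted for the asparaginyl enzyme NARS1 (log2 fold change -0.95), the glutamyl-prolyl enzyme EPRS1 (-0.86), the methionyl enzyme MARS1 (-0.79) and the tyrosyl enzyme YARS1 (-0.65), with edgeR adjusted p between 0.00061 and 0.0123. In all 4 of these genes the groups did not overlap. YARS1 shares 9.31% of its 50-base stretches with S100PBP, and its call was lost with limma on log2(FPKM + 1) (limma adjusted p = 0.0886) and log2(FPKM + 0.1) (0.0688).

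The 5 cytosolic enzymes without a call were the cysteinyl, seryl, arginyl, glutaminyl and histidyl enzymes. CARS1 had 96.9, 60.5 and 53.0 CPM with FKA, against 91.9, 98.6 and 95.3 CPM in controls, so FKA replicate 1 lay among the controls and the other FKA libraries below them. Its log2 fold change was -0.44 (edgeR adjusted p = 0.078), and it passed with the replicate block, in which each batch of the labels holds 1 library of each group (log2 fold change -0.49, edgeR adjusted p = 0.0427). Without FKA replicate 1 it was -0.75 (edgeR adjusted p = 0.000999), and DESeq2 gave an adjusted p of 0.0491. SARS1 stood at -0.11 (0.047 with library totals), RARS1 at 0.06 (-0.05 without control replicate 2, and 0.23 with edgeR adjusted p = 0.046 without control replicate 1) and QARS1 at 0.06 (-0.06 without control replicate 2). HARS1 stood at 0.20 (edgeR adjusted p = 0.144) and passed as higher at 0.37 with library totals (edgeR adjusted p = 0.0132), at 0.30 when control replicate 1 was left out (edgeR adjusted p = 0.0294) and in all 3 limma fits on FPKM (limma adjusted p between 0.0104 and 0.0208). QARS1 had 328, 337 and 327 CPM with FKA, against 336, 265 and 350 CPM in controls, so the FKA libraries lay within the range of the controls.

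**Figure D2:**
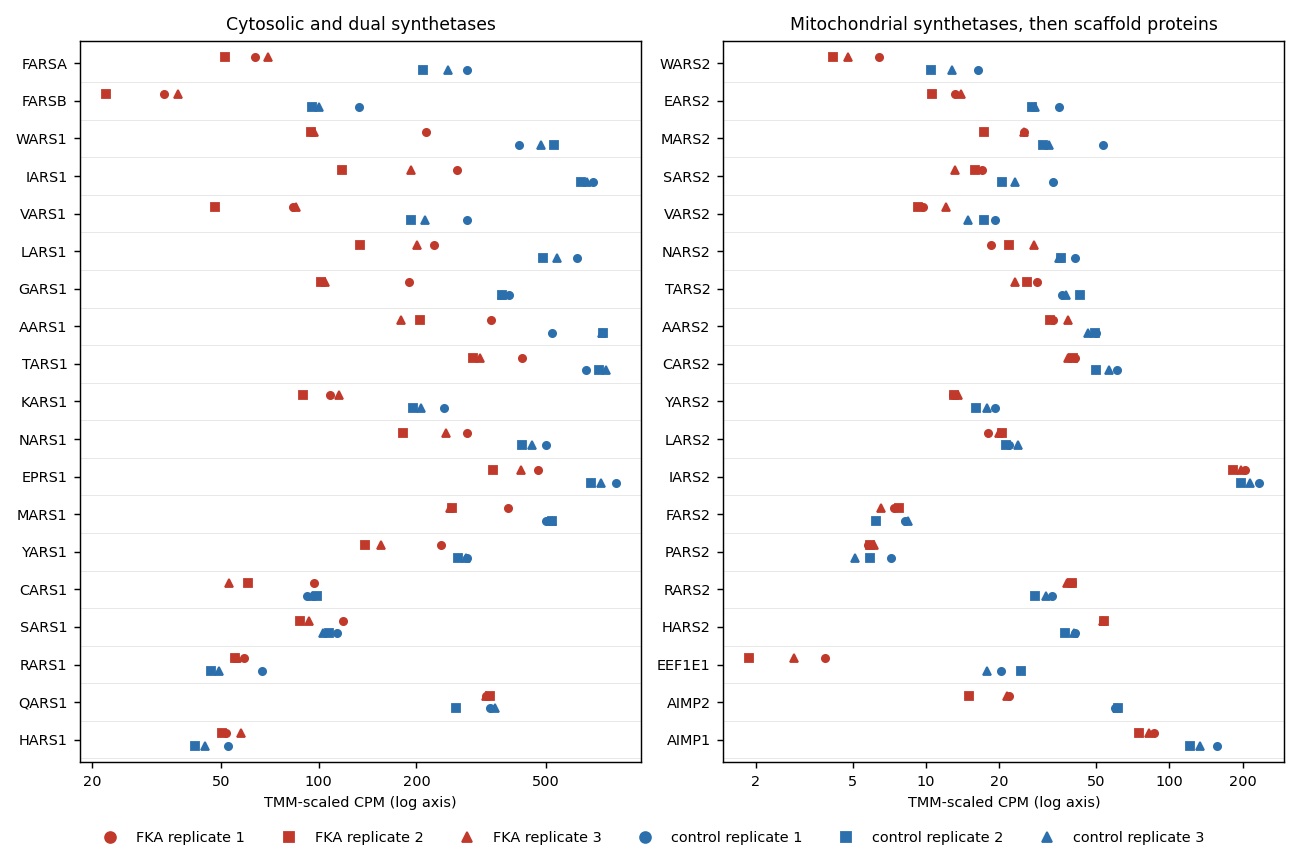
TMM-scaled CPM on a log axis for each gene and library, with FKA libraries as red points above the blue points of the controls and a marker shape for each replicate. FARSA, IARS1 and LARS1 show wide gaps between the groups, whereas the points of QARS1, RARS1 and SARS1 overlap; among scaffold proteins EEF1E1 has the widest gap, with 1.88 to 3.85 CPM with FKA and 17.8 to 24.5 CPM in controls.

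Grouping the cytosolic and dual enzymes by assembly gave 5 of 7 enzymes of the multisynthetase complex lower (median log2 fold change -0.86) and 9 of 12 others lower (median -1.28). By catalytic class, leaving out EPRS1, which joins an enzyme of each class, 6 of 9 class I enzymes (median -0.79) and 7 of 9 class II enzymes (median -1.07) fell. These splits describe the counts, and their differences were not tested.

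The 13 enzymes known from other work to be raised by ATF4 were AARS1, CARS1, EPRS1, GARS1, IARS1, LARS1, MARS1, NARS1, SARS1, TARS1, VARS1, WARS1 and YARS1. Of these 11 fell and CARS1 and SARS1 were not called (median log2 fold change -1.07), whereas of the other 6 enzymes FARSA, FARSB and KARS1 fell and HARS1, QARS1 and RARS1 were not called (median -0.49). FKA replicate 1 was the highest FKA library for 12 of those 13 enzymes, and for 1 of the other 6. It was also the highest for all 3 scaffold genes, which are outside that set. Over all tested genes with counts in every library, replicate 1 was the highest FKA library in 4249 of 13386 (31.7%). In the ATF4-raised set FKA replicate 1 exceeded the mean of the other FKA libraries by a median of 0.59 on the log2 scale, in the other enzymes by 0.08 and in the scaffold genes by 0.28. Control replicate 1 exceeded the mean of the other controls by a median of 0.07 in the ATF4-raised set and 0.31 in the other enzymes. Within batches 1, 2 and 3 the median log2 difference of the 13 enzymes was -0.79, -1.30 and -1.30, and that of the other 6 was -0.68, -0.44 and -0.47.

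FKA replicates 2 and 3, the lowest libraries for 12 of these 13 enzymes (all but VARS1), were also those with the most collagen and fibronectin reads. The part of those reads in the difference was not tested. Among controls, summed CPM of the 19 cytosolic and dual enzymes was 7036, 6675 and 6995 in replicates 1 to 3, and COL1A1 was 2.41, 2.29 and 0.119 CPM. Without FKA replicates 2 and 3 together, the log2 fold changes were -1.16 for WARS1, -0.99 for GARS1, -1.97 for FARSA, -0.44 for MARS1 and -0.24 for YARS1. The median of the cytosolic and dual enzymes was then -0.79, a smaller fall than the -1.04 with all libraries. In that fit the single FKA library is assumed to vary as the controls do.

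**Figure D3:**
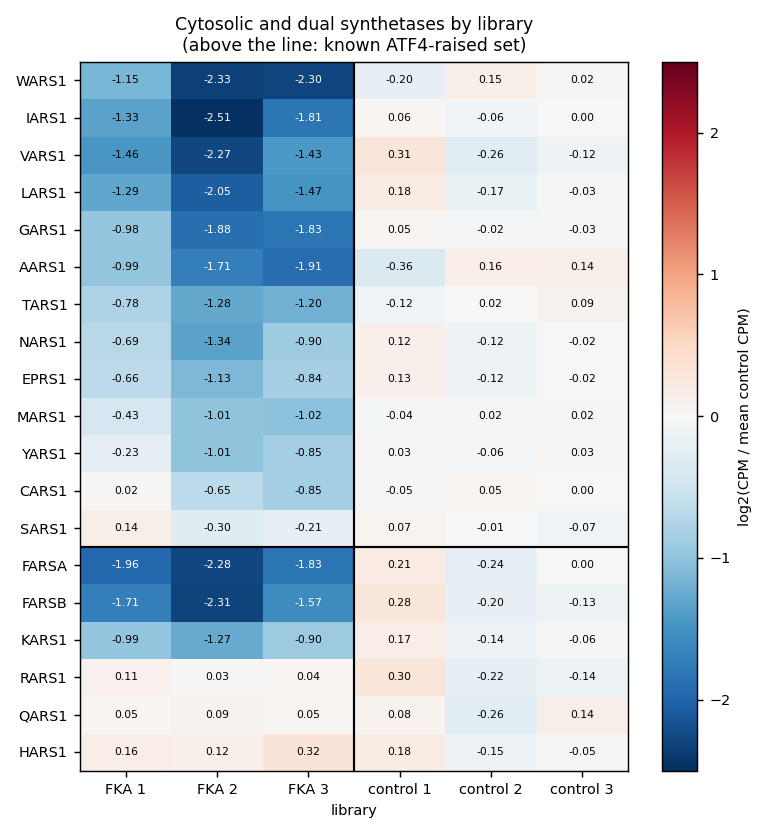
log2 ratio of each library's CPM to the mean CPM of the 3 controls for the 19 cytosolic and dual enzymes, FKA libraries on the left and controls on the right; the enzymes above the horizontal line are the 13 known to be raised by ATF4. In that upper block FKA replicate 1 is paler than FKA replicates 2 and 3 in most rows (WARS1 -1.15, -2.33 and -2.30), whereas FARSA has -1.96, -2.28 and -1.83.

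Promoter windows, from 250 bases before to 50 bases after the gene start in RefSeq (GRCh38.p14), were available for 33 of the 38 genes and were read because these transcripts moved together. The 8-letter core TGATGNAA of the C/EBP-ATF composite element, through which ATF4 is known to act, was searched on both strands. It occurred in 6 of 16 windows of cytosolic and dual enzymes (37.5%), all of them in the ATF4-raised set (6 of its 10 windows), in 1 of 14 windows of mitochondrial enzymes and in none of 3 scaffold windows. The same core occurred in 3.67% of all 27305 promoter windows and in 1.76% of the windows of tested genes. The matches of the cytosolic enzymes are shown because all 6 have the same 8 letters, TGATGCAA, in capitals, each written 5′ to 3′ along the strand that carries them; the mitochondrial match in YARS2, with a different sixth letter, is the last.
AARS1 (chr16:70289676-70289703, + strand): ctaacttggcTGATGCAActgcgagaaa
CARS1 (chr11:3057408-3057435, + strand): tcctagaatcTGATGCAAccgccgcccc
IARS1 (chr9:92293693-92293720, + strand): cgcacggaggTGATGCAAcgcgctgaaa
MARS1 (chr12:57488054-57488081, - strand): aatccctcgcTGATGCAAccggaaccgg
NARS1 (chr18:57621805-57621832, - strand): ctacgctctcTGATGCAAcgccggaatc
TARS1 (chr5:33440957-33440984, - strand): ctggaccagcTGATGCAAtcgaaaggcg
YARS2 (chr12:32756077-32756104, - strand): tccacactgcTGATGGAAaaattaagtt

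In 5 of these cytosolic genes the first base of the match lay within 15 bases of the gene start, and in AARS1 its first base lay 187 bases upstream. Of the 6 cytosolic genes with a match, 5 fell and CARS1 was not called (median log2 fold change -1.01). Of the 10 cytosolic or dual genes whose window held no match, 6 fell (median -0.95), among them FARSA and WARS1. The 2 medians lay close together, their difference was not tested, and a match describes the letters, not a bound site. The whole IARS1 window, on the - strand at chr9:92293648-92293947, is shown because it alone among the cytosolic and dual genes held both this core (read here as TTGCATCA, in capitals) and an E-box.
IARS1 promoter: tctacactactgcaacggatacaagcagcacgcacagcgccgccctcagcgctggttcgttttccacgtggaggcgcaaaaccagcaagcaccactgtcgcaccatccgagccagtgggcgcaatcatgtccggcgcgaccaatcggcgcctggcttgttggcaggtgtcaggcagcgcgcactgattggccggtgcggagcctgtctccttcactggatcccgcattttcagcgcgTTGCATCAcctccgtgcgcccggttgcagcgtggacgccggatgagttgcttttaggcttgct

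The E-box CACGTG, which MYC and related factors bind, occurred in 4 of the 33 windows (12.1%), against 7.43% of all windows and 10.1% of those of tested genes. Besides IARS1 they were the mitochondrial enzymes CARS2, EARS2 and MARS2, all 3 of which fell. Of the 11 mitochondrial genes whose window held no E-box, 5 fell and 2 rose, and the difference was not tested. CARS2, EARS2 and MARS2 are shown on the gene's strand with the E-box in capitals because in each of them the E-box began within 15 bases of the gene start.
CARS2 (chr13:110706503-110706528, - strand): ctgggatgcaCACGTGcttcgctaac
EARS2 (chr16:23557350-23557375, - strand): gggagaagccCACGTGtgctattcca
MARS2 (chr2:197705348-197705373, + strand): gcgcctctcaCACGTGctgtcagaac

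**Figure D4:**
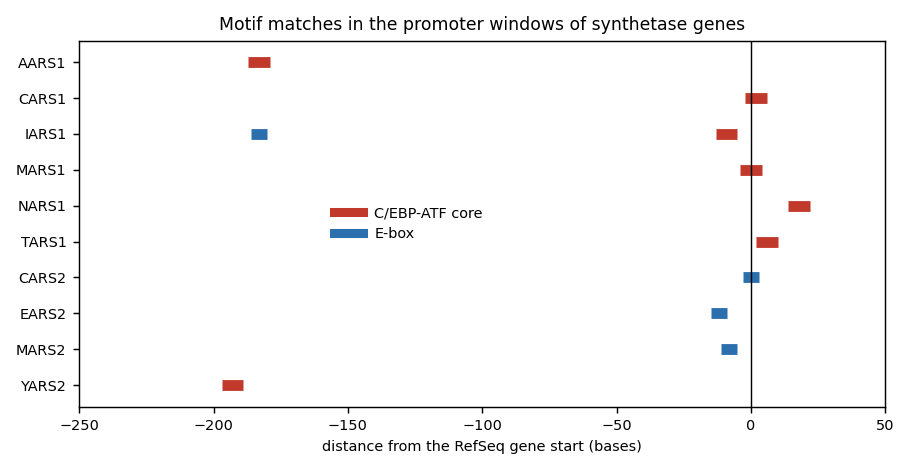
Position of each match of the C/EBP-ATF core (red, 8 bases) and of the E-box (blue, 6 bases) in the promoter windows of the synthetase genes that hold one, as the distance from the RefSeq gene start in bases. The red marks of CARS1, IARS1, MARS1, NARS1 and TARS1 and the blue marks of CARS2, EARS2 and MARS2 lie near the start, whereas AARS1 and YARS2 have theirs 187 and 197 bases upstream.

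All 3 scaffold proteins fell. EEF1E1, the smallest of them, had 3.85, 1.88 and 2.88 CPM with FKA, against 20.3, 24.5 and 17.8 CPM in controls. This was the largest fall of the 38 genes, 7.27-fold (log2 fold change -2.86, SE 0.255, edgeR adjusted p = 3.22e-05), and 33.9% of the 50-base stretches of EEF1E1 also occur in other transcripts, almost all in its read-through with BLOC1S5. AIMP2 had 21.9, 15.1 and 21.5 CPM with FKA, against 59.8, 61.2 and 60.8 CPM in controls (log2 fold change -1.64, SE 0.145, edgeR adjusted p = 3.13e-05). The controls differed little among themselves, and 41.2% of AIMP2's stretches lie in EIF2AK1, so that reads of these genes cannot be told apart over that part where strand was not used. AIMP1, the most abundant of the 3 with FKA per length, had 86.8, 74.9 and 82.8 CPM with FKA, against 157, 122 and 133 CPM in controls, a log2 fold change of -0.75 (SE 0.112, edgeR adjusted p = 0.000458). AIMP1, AIMP2 and EEF1E1 thus differed in the size of the fall while the libraries of the groups stayed apart in each.

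The mitochondrial enzymes moved less and in both directions: of 16 genes 10 fell, 2 rose and 4 were not called. The fall reached 2-fold in 2 of the 16, a share near the 13.7% of all tested genes. WARS2, which charges mitochondrial tRNA with tryptophan, had 6.43, 4.16 and 4.78 CPM with FKA, against 16.3, 10.5 and 12.8 CPM in controls (log2 fold change -1.37, SE 0.225, edgeR adjusted p = 0.000811). EARS2, the glutamyl enzyme, had 13.2, 10.6 and 14.0 CPM with FKA, against 35.0, 27.2 and 28.1 CPM in controls (log2 fold change -1.26, SE 0.153, edgeR adjusted p = 0.000157). In both genes every FKA library was below every control, and control replicate 1 was the highest library.

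MARS2, the methionyl enzyme, had 25.3, 17.3 and 25.2 CPM with FKA, against 53.2, 30.3 and 32.0 CPM in controls. The groups lay close apart from control replicate 1, and the log2 fold change of -0.77 (SE 0.234, edgeR adjusted p = 0.019) missed the threshold without FKA replicate 2 (-0.61, edgeR adjusted p = 0.0618). SARS2, the seryl enzyme, had 16.96, 15.8 and 13.2 CPM with FKA, against 33.3, 20.4 and 23.3 CPM in controls (log2 fold change -0.74, SE 0.192, edgeR adjusted p = 0.00879). Of its 50-base stretches 86.9% occur in transcripts of other genes, so its value is uncertain. MARS2 and SARS2 were not called by limma on log2(FPKM + 1), with limma adjusted p of 0.133 and 0.0682, or on log2(FPKM + 0.1), with limma adjusted p of 0.104 and 0.0502; both were called by limma among genes with a mean FPKM of at least 1. VARS2, the valyl enzyme, had 9.72, 9.31 and 12.0 CPM with FKA, against 19.2, 17.3 and 14.8 CPM in controls (log2 fold change -0.72, SE 0.159, edgeR adjusted p = 0.00388). The asparaginyl (NARS2, -0.71), threonyl (TARS2, -0.58), alanyl (AARS2, -0.49), cysteinyl (CARS2, -0.49) and tyrosyl (YARS2, -0.43) enzymes also fell, with edgeR adjusted p between 0.00255 and 0.0152, although YARS2 was not called with library totals (edgeR adjusted p = 0.081).

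HARS2, the histidyl enzyme, was the clearest exception: it had 53.3, 54.0 and 53.2 CPM with FKA, against 40.9, 37.2 and 40.6 CPM in controls (log2 fold change 0.44, SE 0.0873, edgeR adjusted p = 0.00241). The 3 FKA libraries were nearly equal and all above the controls. Its longest coding transcript shares 11.5% of its 50-base stretches with HARS1, whose gene starts 85 bases away on the opposite strand, and the promoter windows of HARS1 and HARS2 share 184 bases. The HARS2 window is printed, on the + strand at chr5:140691205-140691504, because it holds the starts of both histidyl genes, neither of which fell; only the stretch between the starts lies before both. It held none of the motifs searched, so no letters are in capitals.
HARS2 promoter: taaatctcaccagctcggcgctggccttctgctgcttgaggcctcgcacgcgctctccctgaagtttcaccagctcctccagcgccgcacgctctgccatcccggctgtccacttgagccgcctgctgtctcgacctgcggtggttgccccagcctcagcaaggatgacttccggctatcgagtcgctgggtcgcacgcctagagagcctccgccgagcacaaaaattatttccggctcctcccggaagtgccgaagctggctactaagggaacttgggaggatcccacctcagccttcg

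RARS2, the arginyl enzyme, had 39.8, 39.9 and 37.8 CPM with FKA, against 32.8, 28.1 and 31.1 CPM in controls, a log2 fold change of 0.35 (SE 0.0991, edgeR adjusted p = 0.0132) that missed the threshold without control replicate 2 (0.28, edgeR adjusted p = 0.0555). The histidyl and arginyl enzymes were thus not lower in either compartment. IARS2, the isoleucyl enzyme and the most abundant mitochondrial synthetase per length, had 205, 183 and 197 CPM with FKA, against 233, 196 and 214 CPM in controls. The groups overlapped and the log2 fold change of -0.14 (edgeR adjusted p = 0.242) was 0.024 with library totals. LARS2 stood at -0.19, FARS2 at -0.07 (0.090 with library totals) and PARS2 at -0.03 (0.13 with library totals), and none of these 3 passed. Without FKA replicates 2 and 3 together, 5 mitochondrial enzymes were called lower and 0 higher (HARS2 0.42, edgeR adjusted p = 0.0783).

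Cytosolic enzymes were next set against their mitochondrial counterparts for the same amino acid, as the log2 ratio of their CPM within each library. The 17 such pairs share members, since FARS2 stands against both FARSA and FARSB and EPRS1 against both EARS2 and PARS2. Of their ratios 15 averaged lower with FKA and 2 higher. The share with separate groups was 67.3% among all tested genes taken singly and was not computed for ratios of other genes. Libraries of the groups lay apart in 10 of those 15 pairs and in both of the others. With 3 libraries against 3 a two-sided exact permutation test cannot give a p below 0.1, which all 12 of these pairs had (adjusted over the 17 pairs, 0.142), so no pair could pass the threshold.

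The widest shift was that of the phenylalanyl pair FARSA/FARS2, with log2 ratios of 3.11, 2.72 and 3.42 with FKA and 5.13, 5.07 and 4.89 in controls (FKA minus control -1.95). FARSA fell while FARS2 was not called, and FARSB/FARS2 shifted by -1.78, also without overlap. The isoleucyl pair IARS1/IARS2 had log2 ratios of 0.38, -0.64 and -0.03 with FKA and 1.58, 1.71 and 1.65 in controls (-1.75). In CPM the cytosolic enzyme was above the mitochondrial one in all controls, and below it in 2 of the 3 FKA libraries. LARS1/LARS2 shifted by -1.40, AARS1/AARS2 by -1.03, VARS1/VARS2 by -0.97, EPRS1/PARS2 by -0.85 and TARS1/TARS2 by -0.50.

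The cysteinyl pair shifted by -0.01 (exact permutation p = 0.9) and the methionyl pair by -0.08 (exact permutation p = 0.6), with overlapping groups in both. The asparaginyl (-0.24), tyrosyl (-0.27) and tryptophanyl (-0.55) ratios overlapped as well. The ratios that were higher with FKA were SARS1/SARS2 at 0.60, where SARS2 shares most of its sequence with other transcripts, and EPRS1/EARS2 at 0.39, where the fitted log2 fold changes were -0.86 and -1.26. The HARS1/HARS2 (-0.23) and RARS1/RARS2 (-0.28) ratios shifted down with no overlap, in both cases with the mitochondrial enzyme called higher.

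**Figure D5:**
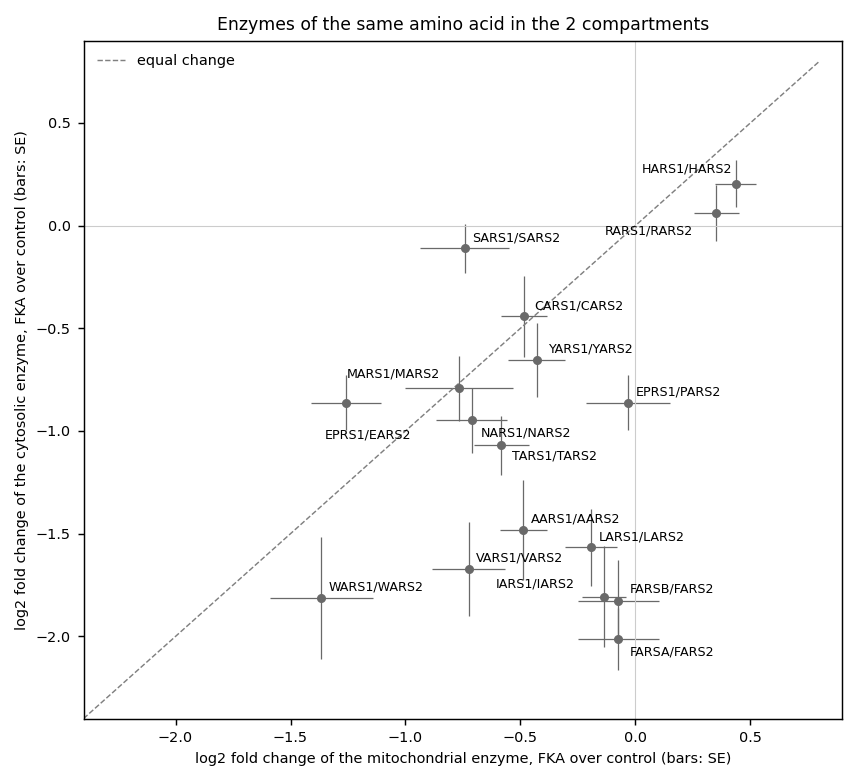
Log2 fold change (FKA over control) of the cytosolic enzyme on the vertical axis against that of the mitochondrial enzyme of the same amino acid on the horizontal axis, with standard errors as bars and a dashed line where both changed equally. FARSA/FARS2, IARS1/IARS2 and LARS1/LARS2 lie far below the line, CARS1/CARS2 and MARS1/MARS2 lie near it, and SARS1/SARS2 and EPRS1/EARS2 lie above it.

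Per length, in FPKM as deposited, the cytosolic and dual enzymes summed to 1370, 958 and 1052 FPKM in FKA replicates 1 to 3, against 2026, 2060 and 2054 FPKM in controls. The mitochondrial enzymes summed to 165, 157 and 162 FPKM with FKA, against 192, 170 and 170 FPKM in controls. The cytosolic to mitochondrial ratio of these sums was 6.98 ± 1.17 with FKA and 11.6 ± 0.872 in controls (SD, n = 3 each), with no overlap between the groups. FPKM here is scaled to library totals only, without TMM.

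The order of the members by FPKM changed at the top. QARS1, which did not pass the test, ranked 1 with FKA at 143 ± 3.71 FPKM and 10 in controls at 122 ± 14.0 FPKM (SD, n = 3 each). Its groups did not overlap in FPKM, whereas they did in TMM-scaled CPM. TARS1 ranked 2 with FKA at 127 ± 24.4 FPKM and 1 in controls at 239 ± 21.1 FPKM. With FKA, QARS1 and TARS1 do not differ beyond their spread. AARS1 stood at 74.2 ± 26.3 FPKM with FKA and 186 ± 40.3 FPKM in controls, and IARS2 at 58.3 ± 2.90 FPKM with FKA and 57.3 ± 3.07 FPKM in controls. FARS2 had the lowest level in FPKM, 1.08 ± 0.104 FPKM with FKA and 1.01 ± 0.129 FPKM in controls. The deposited FPKM implies 7099 bases for FARS2, whose longest coding transcript in GENCODE release 29 has 1692 bases, so its rank depends on the length used. In mean CPM, PARS2 was below FARS2 with FKA (5.93 against 7.23 CPM) and in controls (6.06 against 7.61 CPM). FARSA exceeded its partner FARSB by a ratio of 10.4 ± 1.24 with FKA and 11.6 ± 0.940 in controls in FPKM. The length implied by the deposited FPKM is 9202 bases for FARSB, whose longest coding transcript in GENCODE release 29 has 3369 bases, and 1811 bases for FARSA, so that ratio depends on the length used.

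Genes around tRNA charging were read from lists of related functions, whose counts stand against 30.5% lower and 29.3% higher among all tested genes. Of 32 tested genes of tRNA maturation and export (of 34 listed), 22 fell, 2 rose and 8 were not called, with a median log2 fold change of -0.75. WDR4 (-2.14) and METTL1 (-2.05), which together methylate guanosine in tRNA, and the pseudouridine synthase PUS1 (-2.01) led that fall. Of 10 tested genes of editing and accessory steps (of 11 listed), 4 fell and 3 rose, shares near those of all genes. TARS3, a second cytosolic threonyl enzyme, rose (7.52 ± 1.25 CPM with FKA and 3.36 ± 1.22 CPM in controls, SD, n = 3 each; log2 fold change 1.17, edgeR adjusted p = 0.00552). QRSL1, a subunit of the amidotransferase that makes mitochondrial glutaminyl-tRNA, fell (-1.02), as did the D-aminoacyl-tRNA deacylase DTD1 (-0.88).

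Of 9 cytosolic elongation factors and their partners 4 fell and 5 were not called, with EEF1B2 at -1.18, EIF5A at -1.04 and EEF1G at -0.58. Of 9 mitochondrial factors of translation initiation, elongation, release and recycling 4 fell, among them GFM1 (-1.08), MTIF2 (-0.90) and MRRF (-0.73), and 2 rose. The 6 calls are a share near the 59.8% of all genes. Among 11 genes of uncharged tRNA sensing 6 fell and 3 rose. EIF2AK4, which encodes GCN2, rose (56.9 ± 2.46 CPM with FKA and 36.2 ± 4.26 CPM in controls, SD, n = 3 each; log2 fold change 0.65, edgeR adjusted p = 0.000884), as did CASTOR1, an arginine sensor of low level here (log2 fold change 2.49). DDIT3, an ATF4 target, fell (-1.49), as did EIF2S1, the subunit of eIF2 that GCN2 phosphorylates (-1.41). ATF4 mRNA had 617, 490 and 444 CPM with FKA, against 617, 460 and 498 CPM in controls (log2 fold change -0.02, edgeR adjusted p = 0.91); its protein was not measured here. Of 17 genes of amino acid synthesis and uptake and related targets of ATF4, 16 fell and SLC38A2 was not called (median -1.46), with TRIB3 at -4.31, PYCR1 at -2.98 and CTH at -2.75. For 15 of these 17 FKA replicate 1 was the highest FKA library, as it was for 12 of the 13 ATF4-raised synthetases.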

How the data were processed

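The authors deposited whole-number read counts and FPKM values per gene for 6 libraries. The FPKM values equal count over column total over 1 length per gene (largest relative deviation 8.4e-07). The sources used here do not give the aligner, the counting tool, the use of strand or the annotation. Per the submitters' processing notes the builds are GRCm38 and mm10, names of mouse builds, yet 20649 of 21857 symbols (94.5%) matched human RefSeq, so no gene coordinates from the files are printed. Promoter sequences and their coordinates are RefSeq's (GRCh38.p14). 5 members, AARS2, LARS1, VARS1, VARS2 and YARS1, had no window and were not searched.

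Counts were tested in R 4.3.3 with edgeR 4.0.16 (filterByExpr, TMM, quasi-likelihood F test, Benjamini-Hochberg over 13531 genes, threshold 0.05). The biological coefficient of variation was 15.4%. No 2 replicates agreed within sampling noise (chi-square over degrees of freedom, 21.7 to 66.3). The labels' batch equals the replicate number and pairs the libraries; deviations from group means correlated at 0.05, 0.34 and -0.08 in batches 1 to 3. Alternatives were the replicate block, DESeq2 1.42.0, limma 3.58.1, other scalings, filters and left-out libraries. On counts simulated for FKA against control (13321 genes) the test recovered 39.6%, 68.8%, 98% and 100% of genes changed 1.5-, 2-, 4- and 8-fold, and called 0.137% of unchanged genes. In that simulation 13125 genes were unchanged, whereas 59.8% of genes were called in the data, so these rates hold for the simulated setting only.

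The members, lists and tests were chosen with earlier results of these data known. Values in each library are given for the 8 cytosolic or dual and 5 mitochondrial enzymes with the largest called change, the scaffold proteins, members called against their group's direction and the most abundant members. KARS1, CARS1 and QARS1 were added after their values were seen. From each pathway list up to 3 called genes with the largest change are named, with ATF4, and from each marker list the most abundant gene; COL1A1, FN1, MPO, CSF3R, ITGAM, CD68, TARS3, EIF2AK4 and SLC38A2 were also chosen after their values were seen. Shared 50-base stretches were counted on both strands of GENCODE release 29 transcripts.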

Additional observations from a re-analysis of the deposited data

How the results depend on the processing

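Of the 38 genes, all kept direction and call with RLE scaling and when genes needed 1 CPM in 3 libraries, and 37 with the replicate block, DESeq2 or no filter, where CARS1 was the exception. Among the counts, leaving out FKA replicates 2 and 3 together gave 2020 higher and 2599 lower genes, and 5 mitochondrial enzymes lower and 0 higher. The count of cytosolic enzymes higher was 1 (HARS1) with library totals and in all 3 limma fits, on log2(FPKM + 0.1) and on log2(FPKM + 1) without or with a minimum mean FPKM of 1; it ran from 0 to 2 when 1 library was left out, and that of mitochondrial enzymes higher from 1 to 2. The mitochondrial median was -0.33 with library totals, -0.29 with limma on log2(FPKM + 1), with or without the FPKM minimum, and -0.32 with 0.1; the scaffold median was -1.40 with limma on log2(FPKM + 1), with or without that minimum. Values with no call changed sign. With library totals SARS1 was 0.047, FARS2 0.090, IARS2 0.024 and PARS2 0.13. With limma on log2(FPKM + 1), with or without the FPKM minimum, SARS1 was 0.036, FARS2 0.047, IARS2 0.024 and PARS2 0.10, and with 0.1 they were 0.036, 0.085, 0.024 and 0.13. PARS2 was 0.035 with upper-quartile scaling. Without FKA replicates 2 and 3 together CARS1 was 0.014 and SARS1 0.13. Leaving out 1 library gave QARS1 -0.061 to 0.13, RARS1 -0.048 to 0.23 and PARS2 -0.15 to 0.10. Without FKA replicate 1 CARS1 was called lower, and without FKA replicate 2 MARS2 was not called. Without control replicate 1 HARS1 and RARS1 were called higher, and without control replicate 2 RARS2 was not called. The cause of these changes was not tested. The lowest count of any member in a library was 60 (EEF1E1 with FKA).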

Other observations

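The promoter windows were also searched on both strands for the cAMP response element TGACGTCA and for TGACNNNGC, the core of the antioxidant response element that NRF2 binds. The cAMP element occurred in 1 of 33 windows (3.03%), that of AIMP2, against 1.98% of all windows and 3.29% of those of tested genes. The antioxidant core occurred in 6 of 33 windows (18.2%), against 13.6% of all windows and 15.4% of those of tested genes. These were the windows of AIMP2, KARS1, NARS2, RARS2, TARS1 and WARS1. Of these 6 genes RARS2 rose and the others fell, where 71.1% of all 38 members fell.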
